A study of Mus musculus with 48 samples.

Results

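The genes described here encode mitochondrial ribosomal proteins, and they were taken as every row of the 2 TempO-Seq tables whose symbol begins with Mrpl or Mrps followed by a digit. The rule found 72 of the 11275 genes of the frozen-liver (FROZ) table and 51 of the 6673 genes of the formalin-fixed, paraffin-embedded (FFPE) table. All 51 FFPE members were also FROZ members, so 21 members were listed in the FROZ table alone. Of 79 genes on a list of mitoribosomal genes named in this way, 7 were not in the FROZ table, Mrps18c among them. The symbols were chosen by name and not by any measured value, though earlier results of these data were known when the family was chosen. By subunit, the 72 members comprised 47 proteins of the large subunit, 24 of the small subunit and Mrps36.

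The livers came from 24 male B6C3F1 mice, 4 weeks of age, given dichloroacetic acid (DCA) in their drinking water over 6 days. Controls received none, and intakes of the other groups were 198 mg/kg-d from water with 1.0 g/L, 313 mg/kg-d from 2.0 g/L and 427 mg/kg-d from 3.5 g/L, with 6 animals per dose. Each animal contributed 1 FROZ library from purified RNA and 1 FFPE library from a tissue lysate. Both kinds of sample came from more than 1 lobe, and the lobes were not all the same. Preservation, lobe and input thus differed together and cannot be told apart. The tissues had been stored for decades, and the paper reported low RNA integrity numbers for the frozen RNA as well. TempO-Seq reads pairs of detector oligos ligated on their target transcript, and the deposited values are log2(CPM + 1), where CPM are the reads of a gene scaled to a fixed total per library. Very abundant transcripts were attenuated equally in all samples, so the CPM of such genes need not reflect their abundance.

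Mitochondria carry their own ribosome, which translates the few respiratory chain and ATP synthase subunits still encoded by mitochondrial DNA. Its RNAs come from the mitochondrial genome, whereas all of its proteins are encoded in the nucleus, made in the cytosol and imported. Some of these proteins descend from bacterial ribosomal proteins and others have no bacterial counterpart. Hepatocytes are rich in mitochondria, and DCA is best known as an inhibitor of pyruvate dehydrogenase kinase, which increases entry of pyruvate into mitochondrial oxidation.

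FROZ libraries held 6.69 to 9.84 M reads on the listed genes, as recovered from the step of the low values, and FFPE libraries 1.83 to 6.02 M reads. At most 0.541% of genes were at 0 in a FROZ library, against 0.974% to 23.8% in an FFPE library. The FFPE libraries with over 10% of genes at 0 numbered 8, of which 1 was a control, 4 were from 198 mg/kg-d and 3 from 313 mg/kg-d. Members at 0 reached 17 of 51 in animal 49 from the lowest dose of DCA, in its FFPE sample. Within dose groups the SD of a member had a median of 0.20 log2 units in FROZ and 1.31 in FFPE. Hepatocyte markers (Alb, Apoa1, Ttr, Cps1, Apob and Tat) were all listed in FROZ, with a summed level of 21595 to 27309 CPM in controls.

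DCA exposure was first examined in FROZ, where mitochondrial ribosomal protein genes rose across most of the ribosome at the 2 higher doses and none fell. The call was a false discovery rate (FDR) under 0.05 in limma, adjusted across every gene of that table. At 313 mg/kg-d 42 of the 72 members were higher than in controls, beside 20.5% of all genes, and 0 were lower, beside 6.15% of all genes. At 427 mg/kg-d 44 were higher (all genes, 22.7%) and 0 were lower (all genes, 7.33%). At 198 mg/kg-d only 4 members passed, Mrps18b, Mrpl45, Mrps28 and Mrpl35 (all genes, 1.12%), and 0 were lower (all genes, 0.443%). That count was 2 without animal 52 of the 198 mg/kg-d group. No member had an unadjusted p under 0.05 with a lower level at any dose in FROZ, by limma. Over all 11275 genes, 1924, 4208 and 4471 had a p under 0.05 at the 3 rising doses. Of those, 1495, 3186 and 3280 were higher. In bulk liver, fewer cells of a type and less RNA per cell cannot be told apart.

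The changes were small and alike in direction. The median log2 fold change of the 72 members was 0.20, 0.34 and 0.33 at 198, 313 and 427 mg/kg-d, beside 0.07, 0.11 and 0.10 for all genes. A median of 0.33 corresponds to a 1.26-fold change. The value was above 0 for 64, 69 and 68 of the 72 members, or 88.9%, 95.8% and 94.4%, beside 65.6%, 65.0% and 63.9% of all genes. The 4 members below 0 at 427 mg/kg-d were Mrpl44, Mrpl32, Mrps25 and Mrpl10, with values from -0.18 to -0.04, and none of them passed the test. These 4 were named after their values were seen.

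**Figure D1:**
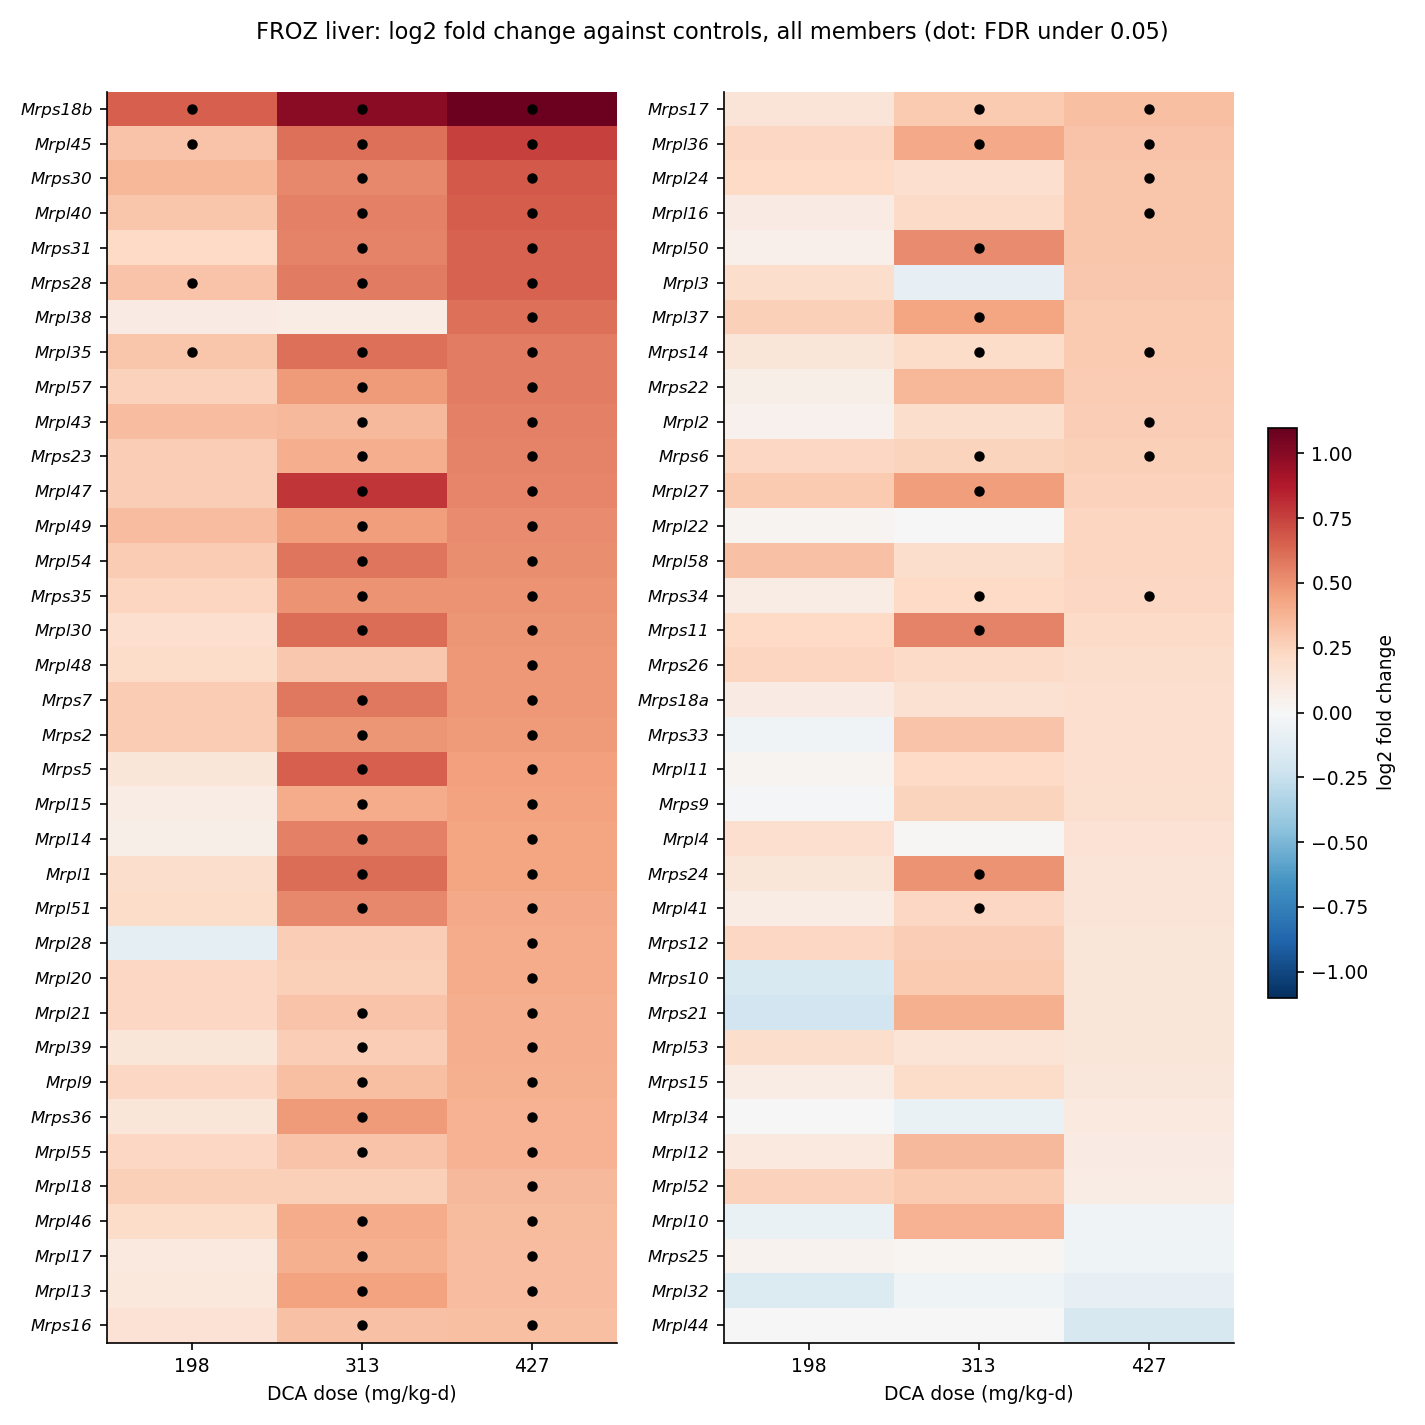
Log2 fold change against controls of all 72 members in FROZ liver, by DCA dose (columns, mg/kg-d), sorted by the value at 427 mg/kg-d. Black dots mark FDR under 0.05. Colour runs from blue (lower) to red (higher), and all 44 dots at 427 mg/kg-d lie on red cells.

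The size of the rise depended on how libraries were scaled. The median-ratio factors of FROZ libraries ranged from 0.893 to 0.980 in controls and from 1.01 to 1.07 at 427 mg/kg-d, so the deposited CPM place the median of all genes above 0 in treated animals. With libraries rescaled by these factors, 1, 24 and 24 members were higher at the 3 doses and 0 were lower. The same rescaling gave 12.6% of all genes higher and 12.6% lower at 427 mg/kg-d. The member medians became 0.11, 0.22 and 0.19, while those of all genes lay within 0.01 of 0. The value at 427 mg/kg-d was then above 0 for 65 members, or 90.3%, beside 49.0% of all genes.

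Summed over the 72 members, the FROZ level was 3097 to 3485 CPM in controls, with a median of 3356. It was 3579 to 3937 CPM at 198 mg/kg-d (median 3886), 4171 to 4519 CPM at 313 mg/kg-d (median 4449) and 4124 to 4629 CPM at 427 mg/kg-d (median 4466). Every treated animal therefore lay above every control, and the 2 higher doses overlapped each other. After rescaling, controls ranged from 3407 to 3715 and the 198 mg/kg-d animals from 3478 to 4020, which overlapped. The 313 and 427 mg/kg-d animals, at 4051 to 4319 and 3862 to 4569, still lay above all controls.

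Counted gene by gene, all 6 treated animals lay above all 6 controls for 4, 28 and 22 of the 72 members at 198, 313 and 427 mg/kg-d, beside 1.41%, 9.14% and 11.4% of all genes. With median-ratio scaling the count at 427 mg/kg-d was 9. In the deposited values 14 members lay above all controls at both 313 and 427 mg/kg-d. The share of all genes was not computed for either of these counts. No member had all treated animals below all controls at any dose, a count for which the share of all genes was not computed either. A linear slope on dose passed for 46 members with a rising level (all genes, 24.4%) and for 0 with a falling level (all genes, 7.73%). With median-ratio scaling 29 members rose (all genes, 13.6%).

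Mrps18b, a small-subunit protein and 1 of several mitochondrial relatives of bacterial S18, showed the largest change. The gene lies at chr17:35910379-35916389 on the minus strand (GRCm38). Its FROZ level ranged from 47.4 to 60.0 CPM in controls (median 50.7), from 67.7 to 98.1 at 198 mg/kg-d (median 81.3), from 90.4 to 126 at 313 mg/kg-d (median 102) and from 87.3 to 128 at 427 mg/kg-d (median 119). The controls lay below every treated animal at every dose. Log2 fold changes were 0.65 ± 0.11, 0.99 ± 0.11 and 1.08 ± 0.11 (SE), with FDR of 0.00137, 1.24e-07 and 1.25e-08. It was the 1 member above 2-fold with FDR under 0.05 in FROZ, at 427 mg/kg-d, beside 2.26% of all genes. With median-ratio scaling its value there was 0.93, below 2-fold, with FDR of 8.26e-08. Mrps18a, another relative of S18 that sits in the large subunit, was listed at 1.11 to 2.63 CPM in controls and 1.02 to 2.74 CPM at 427 mg/kg-d. Its log2 fold change of 0.19 ± 0.17 did not pass (FDR 0.451).

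The other 3 members called at 198 mg/kg-d were also called at both higher doses. Mrpl45 is a large-subunit protein without a bacterial counterpart that contacts the inner membrane, and its gene lies at chr11:97315716-97329920 on the plus strand. Its FROZ level ranged from 109 to 127 CPM in controls (median 126), from 144 to 160 at 198 mg/kg-d (median 154), from 175 to 200 at 313 mg/kg-d (median 191) and from 190 to 229 at 427 mg/kg-d (median 208). No treated animal overlapped the controls, and the log2 fold changes were 0.32 ± 0.06, 0.61 ± 0.06 and 0.75 ± 0.06, with FDR of 0.00848, 6.69e-08 and 5.84e-10. Mrps28 belongs to the small subunit and Mrpl35 to the large subunit. Mrps28 ranged from 26.6 to 33.5 CPM in controls (median 28.2), from 32.0 to 37.1 at 198 mg/kg-d (median 36.9), from 38.5 to 48.7 at 313 mg/kg-d (median 41.8) and from 40.6 to 49.5 at 427 mg/kg-d (median 45.6). Its lowest dose overlapped the controls and the higher doses did not. Its log2 fold changes were 0.32 ± 0.08, 0.57 ± 0.08 and 0.65 ± 0.08. The call at 198 mg/kg-d (FDR 0.0337) was lost when any 1 of control animals 3, 4, 6, 7 and 8 or of animals 50, 52, 53 and 54 was left out. Mrpl35 ranged from 90.0 to 106 CPM in controls (median 99.3), from 113 to 134 at 198 mg/kg-d (median 122), from 136 to 163 at 313 mg/kg-d (median 151) and from 133 to 164 at 427 mg/kg-d (median 145). Controls and treated animals did not overlap at any dose. Its log2 fold changes were 0.31 ± 0.07, 0.61 ± 0.07 and 0.56 ± 0.07. With median-ratio scaling, Mrps18b alone of the 4 passed at 198 mg/kg-d (FDR 0.00403), and all 4 passed at both higher doses.

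**Figure D2:**
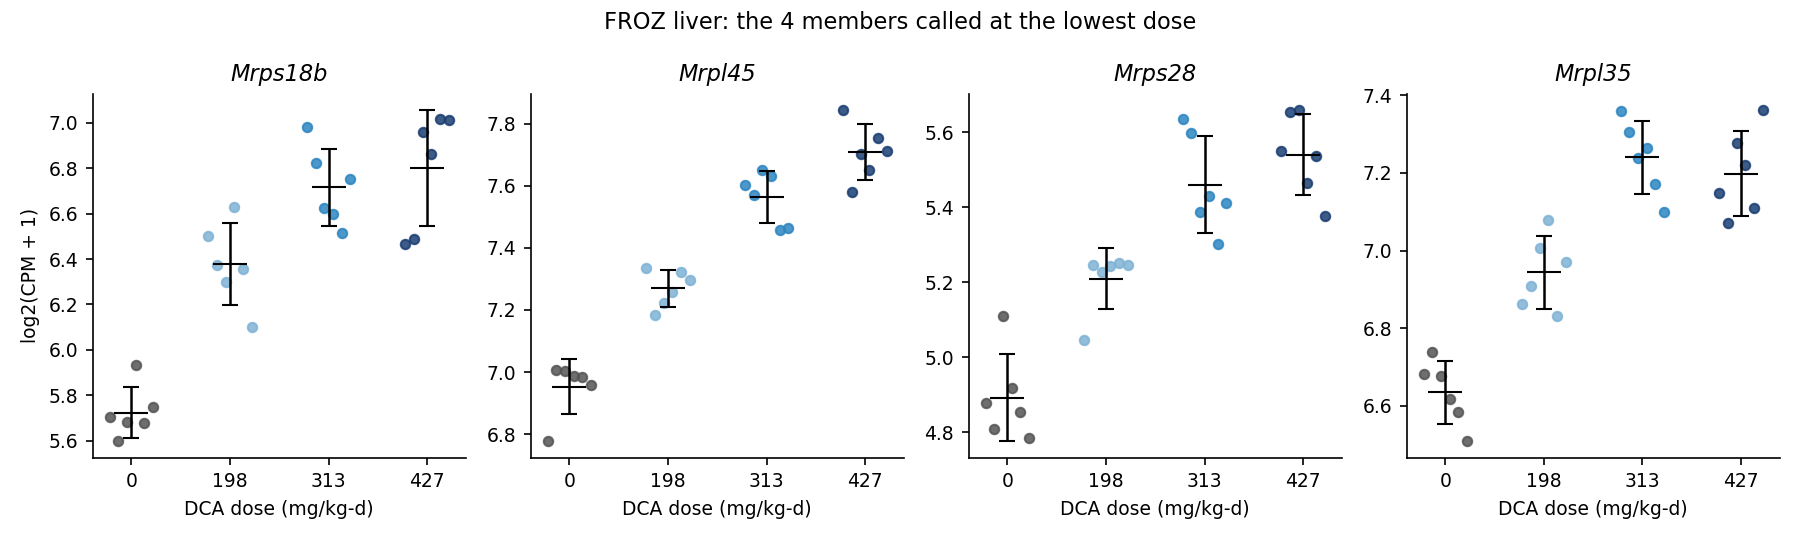
FROZ levels, as log2(CPM + 1), of the 4 members called at 198 mg/kg-d, against DCA dose (mg/kg-d, drawn as categories). Points are animals (n = 6 per dose) and bars give mean ± SD. For Mrps18b, Mrpl45 and Mrpl35 every treated animal lies above every control.

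The promoters of these genes are shown because coordinate expression of nuclear genes for mitochondria is known to involve factors that bind upstream of their start sites. RefSeq promoter windows of 300 bases (250 before and 50 after the start, GRCm38.p6) were matched by symbol for 64 of the 72 members. Mrps18b (chr17:35916391-35916690, minus strand), Mrpl45 (chr11:97315466-97315765, plus), Mrpl35 (chr6:71823735-71824034, minus) and Mrps30 (chr13:118387203-118387502, minus) rose in FROZ, and Mrpl12 (chr11:120484387-120484686, plus) is shown as a member that did not pass at any dose. Capitals mark matches, on either strand, to an NRF1 core (GCGCNTGCG), an ETS core (CCGGAAG), a YY1 core (ATGGCGG) or a CCAAT box (GATTGG).
Mrps18b: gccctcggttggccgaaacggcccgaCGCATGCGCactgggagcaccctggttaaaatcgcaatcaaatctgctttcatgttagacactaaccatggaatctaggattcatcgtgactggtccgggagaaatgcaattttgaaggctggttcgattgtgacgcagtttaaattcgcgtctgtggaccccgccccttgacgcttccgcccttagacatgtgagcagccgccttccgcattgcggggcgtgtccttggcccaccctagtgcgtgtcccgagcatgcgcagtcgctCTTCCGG
Mrpl45: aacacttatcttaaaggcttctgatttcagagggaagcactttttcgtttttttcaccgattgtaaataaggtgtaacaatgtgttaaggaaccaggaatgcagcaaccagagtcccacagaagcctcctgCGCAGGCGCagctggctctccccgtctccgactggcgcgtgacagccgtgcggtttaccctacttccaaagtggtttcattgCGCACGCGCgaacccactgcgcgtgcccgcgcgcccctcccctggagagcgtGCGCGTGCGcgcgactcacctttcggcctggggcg
Mrpl35: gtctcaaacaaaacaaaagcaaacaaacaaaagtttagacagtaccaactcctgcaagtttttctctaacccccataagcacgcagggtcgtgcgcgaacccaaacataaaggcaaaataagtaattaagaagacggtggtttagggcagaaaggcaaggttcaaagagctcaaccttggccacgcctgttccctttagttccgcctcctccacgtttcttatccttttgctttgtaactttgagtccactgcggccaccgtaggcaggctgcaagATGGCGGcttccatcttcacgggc
Mrps30: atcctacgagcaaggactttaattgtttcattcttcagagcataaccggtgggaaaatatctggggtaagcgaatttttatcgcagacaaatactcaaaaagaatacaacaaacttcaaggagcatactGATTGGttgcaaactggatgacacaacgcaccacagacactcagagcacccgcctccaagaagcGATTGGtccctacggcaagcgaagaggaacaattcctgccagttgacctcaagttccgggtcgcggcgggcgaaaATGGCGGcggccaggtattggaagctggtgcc
Mrpl12: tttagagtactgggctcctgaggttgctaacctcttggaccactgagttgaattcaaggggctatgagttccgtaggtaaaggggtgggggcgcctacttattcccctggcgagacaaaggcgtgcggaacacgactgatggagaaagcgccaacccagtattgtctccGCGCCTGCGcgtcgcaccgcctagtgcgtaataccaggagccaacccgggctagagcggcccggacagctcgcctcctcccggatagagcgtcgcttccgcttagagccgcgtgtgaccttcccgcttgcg
The Mrpl45 window held 3 NRF1 cores, and the Mrps18b window held 1 NRF1 core at bases 27 to 35 and 1 ETS core at bases 294 to 300. The Mrpl35 and Mrps30 windows each held a YY1 core just after the start, and Mrps30 also 2 CCAAT boxes. Mrpl12 held an NRF1 core as well. Every window printed thus held a match, which was not so for the windows left out. Those of Mrpl40, Mrps14 and Mrps36, which also rose in FROZ, held no match. That of Mrps31, which rose too, held a CCAAT box alone. Among members that did not pass at the highest dose, Mrpl10, Mrps12 and Mrps18a held matches and Mrpl11 held none. The RefSeq start of Mrpl35 lies inside the gene span of GENCODE M21 (chr6:71812997-71826969). The whole Mrps18b window, its ETS core included, lies upstream of the GENCODE span of that gene (chr17:35910379-35916389).

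Over the 64 members with a window, 18 had an NRF1 core (28.1%, beside 7.12% of all 27025 genes of the promoter table and 15.5% of the FROZ genes in it). An ETS core was found for 23 members (35.9%, beside 9.93% and 19.9%), a YY1 core for 12 (18.8%, beside 4.69% and 9.23%) and a CCAAT box for 13 (20.3%, beside 18.2% and 23.6%). The motifs did not overlap one another in the windows printed. Of the members with a window, 37 were higher at 427 mg/kg-d and 27 did not pass. An NRF1 core was present for 27.0% of the former and 29.6% of the latter, an ETS core for 27.0% and 48.1%, a YY1 core for 13.5% and 25.9% and a CCAAT box for 13.5% and 29.6%. These shares are descriptions, not tested, and a match does not show binding.

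Other members with large changes at 427 mg/kg-d came from both subunits. Mrps30, a large-subunit protein despite its name, ranged from 13.5 to 21.6 CPM in FROZ controls (median 16.6) and from 21.6 to 38.2 at 427 mg/kg-d (median 26.1), so the ranges just overlapped. Its log2 fold change was 0.68 ± 0.14 (FDR 0.000716). Mrpl40 of the large subunit ranged from 9.63 to 15.8 CPM in controls (median 13.5) and from 17.7 to 25.4 at 427 mg/kg-d (median 21.7), without overlap, with a log2 fold change of 0.67 ± 0.11 (FDR 5.87e-05). Mrps31, a small-subunit protein without a bacterial counterpart, ranged from 36.1 to 50.8 CPM in controls (median 40.7) and from 49.2 to 90.8 at 427 mg/kg-d (median 66.8), with a slight overlap and a log2 fold change of 0.65 ± 0.11 (FDR 6.12e-05). Mrps36, now known as a subunit of the 2-oxoglutarate dehydrogenase complex and not of the ribosome, also rose, by 0.38 ± 0.10 (FDR 0.00642), and its level went from a median of 88.3 CPM in controls (70.2 to 94.9) to 115 CPM (85.4 to 129). With median-ratio scaling the call for Mrps36 was lost (FDR 0.118).

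Mrpl38, a large-subunit protein without a bacterial counterpart, changed at the highest dose alone among the 3 doses in FROZ. The gene lies at chr11:116131817-116138868 on the minus strand. Its FROZ level ranged from 21.4 to 34.7 CPM in controls (median 27.0), from 25.9 to 32.9 at 198 mg/kg-d (median 29.2), from 24.1 to 35.6 at 313 mg/kg-d (median 30.1) and from 35.0 to 45.2 at 427 mg/kg-d (median 44.1). Both lower doses overlapped the controls, and the highest lay just above them. The log2 fold changes were 0.09 ± 0.11, 0.08 ± 0.11 and 0.60 ± 0.11, with FDR of 0.743, 0.63 and 0.000113. The step from 313 to 427 mg/kg-d, a contrast chosen after the values were seen, was 0.52 ± 0.11 for Mrpl38 (FDR 0.00838). It was the 1 member of 72 past that test, beside 3.07% of all genes, and the median step of the members was -0.02.

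Stalk and decoding proteins, all under 10 CPM in FROZ, did not pass. Mrpl12, Mrpl10 and Mrpl11 belong to the stalk region, where translation factors dock. Their log2 fold changes at 427 mg/kg-d were 0.09 ± 0.20, -0.04 ± 0.17 and 0.18 ± 0.16, with FDR of 0.767, 0.888 and 0.435. Mrpl10 ranged from 0.221 to 1.37 CPM in controls and from 0.224 to 0.837 CPM at 427 mg/kg-d, where 3 reads corresponded to 0.305 to 0.449 CPM in FROZ libraries. Mrps12 of the decoding centre ranged from 3.32 to 6.30 CPM in controls and from 4.42 to 5.83 CPM at 427 mg/kg-d, with a log2 fold change of 0.14 ± 0.15 (FDR 0.53).

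Members with more reads were called more often. Of the 48 members averaging 10 CPM or more in FROZ, 40 were higher at 427 mg/kg-d (83.3%), beside 32.6% of the 5875 genes at that level. Of the 24 members under 10 CPM, 4 were higher (16.7%), beside 649 of 5400 genes. Median log2 fold changes in these groups were 0.39 and 0.15, beside 0.15 and 0.07 for all genes so divided. The offset of 1 CPM in the deposited values makes changes of low genes look smaller. The 21 members listed in FROZ alone included 9 called at 427 mg/kg-d, with a median of 0.30, and the 51 listed in both tables included 35, with a median of 0.34.

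Both subunits took part. At 427 mg/kg-d, where 22.7% of all genes were higher, 30 of 47 large-subunit and 13 of 24 small-subunit members were. Their medians were 0.35 and 0.27. At 313 mg/kg-d the counts were 26 and 15 (all genes, 20.5%), with medians of 0.33 and 0.34. Members with a bacterial counterpart were higher in 25 of 41 cases at 427 mg/kg-d (median 0.31), and those without one in 16 of 27 (median 0.40). The remaining members, Mrps18b among them, were on neither of these lists. With median-ratio scaling 15 large-subunit and 9 small-subunit members were higher at 427 mg/kg-d, and 9 with and 13 without a counterpart. The share of all genes higher with that scaling was 12.6%. The differences between these subsets were not tested. At 313 or 427 mg/kg-d 50 members were called, 36 of them at both doses, 6 at 313 mg/kg-d alone and 8 at 427 mg/kg-d alone. The group mean was highest at 313 mg/kg-d for 33 members and at 427 mg/kg-d for 33, and lowest in controls for 61. These overlaps and orders were not counted over all genes, so they cannot be read as particular to the members.

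Other genes of mitochondrial gene expression were taken from lists set by function, and their counts in FROZ at 427 mg/kg-d stand beside the 22.7% of all genes that were higher. Of 5 mitoribosomal proteins with other names 3 rose (60.0%, median of the list 0.32), namely Dap3 and Ptcd3 of the small subunit and Aurkaip1. Of 14 translation factors 8 rose (57.1%, median 0.30), among them the elongation factors Tufm (0.28 ± 0.10) and Tsfm (0.55 ± 0.12) and the initiation factors Mtif2 (0.32 ± 0.08) and Mtif3 (0.49 ± 0.09). Of 18 genes for charging mitochondrial tRNA 7 rose (38.9%, median 0.26), including Qrsl1 (0.69 ± 0.13), a subunit of the glutamine amidotransferase. Of 21 assembly factors 6 rose (28.6%, median 0.24), among them the rRNA methyltransferase Mrm3 (0.75 ± 0.12) and the GTPase Gtpbp10 (0.61 ± 0.10).

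Of 12 genes for mitochondrial transcription and its nuclear regulators 3 rose at 427 mg/kg-d in FROZ, or 25%, near the share of all genes, with a median of 0.14 beside 0.10. They were Tfam, which packages mitochondrial DNA and starts its transcription (0.70 ± 0.11, FDR 3.01e-05), Yy1 (0.34 ± 0.09) and Ppara (0.39 ± 0.15), and the calls for Yy1 and Ppara were lost with median-ratio scaling. The coactivator Ppargc1a had a value of -0.28 ± 0.23 (FDR 0.389), and Nrf1, whose core motif was searched in the promoters, 0.23 ± 0.14 (FDR 0.25). With median-ratio scaling, 1 protein with another name (Ptcd3, 20%), 3 translation factors (21.4%), 2 genes for charging tRNA (11.1%), 4 assembly factors (19.0%) and Tfam (8.33%) were higher at 427 mg/kg-d, beside 12.6% of all genes, whereas Tufm and Mtif2 did not pass. None of the genes on these 5 lists was lower at that dose, and those named from them were named after their values were seen. At 313 mg/kg-d 1 of the 12 genes for mitochondrial transcription and its regulators was lower in FROZ, beside 6.15% of all genes. With median-ratio scaling it was also 1, beside 10.8% of all genes. Nuclear subunits of the respiratory chain and ATP synthase, the enzymes that the mitochondrial ribosome helps to build, were higher in 56 of 73 cases at 427 mg/kg-d (median 0.48). Cytosolic ribosomal proteins were higher in 12 of 62 and lower in 1, Rpl35, with a median of 0.08, close to the 0.10 of all genes. With median-ratio scaling the counts were 42 higher and 1 lower for the respiratory chain, 24 and 0 for the members, and 6 and 4 for the cytosolic ribosomal proteins.

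Genome position was examined because nuclear genes for mitochondrial proteins often share a start region with a gene on the other strand. All 72 members were placed in GENCODE M21 (GRCm38), on 17 chromosomes. A protein-coding gene on the opposite strand started upstream within 1000 bases for 16 members (22.2%), beside 10.1% of 11056 coding genes of the FROZ table. For Mrps18b this neighbour was Ppp1r10, whose start lay 45 bases away. Ppp1r10 did not pass in FROZ at 427 mg/kg-d (log2 fold change 0.28 ± 0.14, FDR 0.144). Of 13 such neighbours listed in FROZ, 4 were higher and 0 lower at 427 mg/kg-d, or 30.8%, near the 22.7% of all genes, and their median was 0.21. Of the 13 members of those pairs 9 were higher. For 24 members another coding gene overlapped the gene body, and the deposited values cannot show from which of the genes an oligo pair read where both are transcribed on the same strand. Most members were distinct in sequence, with a median of 0.539% of 50-base transcript windows shared with another gene. Over 20% was shared for 4 members, Mrpl22, Mrpl27, Mrpl53 and Mrps34, and for Mrps18b the share was 14.6%, most of it with Gm13552.

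FFPE libraries of the same animals gave few calls. At 427 mg/kg-d 1 of 51 members was higher, Mrpl38 (all genes, 1.54%), and 0 were lower (all genes, 0.869%). At 313 mg/kg-d 1 was higher, Mrps14 (all genes, 0.764%), and 0 were lower (all genes, 0.315%). At 198 mg/kg-d 0 were higher and 0 lower by limma (all genes, 0.03% and 0.03%), and 9 members had an unadjusted p under 0.05, 4 of them higher and 5 lower (all genes, 785 of 6673, of which 242 were higher). Both calls were above 2-fold, which at 427 mg/kg-d held for 1.23% of all genes. A rising slope on dose passed for Mrpl38 alone (all genes, 1.51%), and a falling one for 0 members (all genes, 0.659%). The SE of a member's log2 fold change at 427 mg/kg-d ran from 0.22 to 1.12 in FFPE and from 0.06 to 0.21 in FROZ.

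Mrpl38 in FFPE ranged from 23.9 to 123 CPM in controls (median 82.5), from 21.6 to 75.9 at 198 mg/kg-d (median 48.9), from 73.5 to 392 at 313 mg/kg-d (median 135) and from 160 to 448 at 427 mg/kg-d (median 278). All animals at 427 mg/kg-d lay above all controls, and the middle dose overlapped them. The log2 fold changes were -0.67 ± 0.39, 0.95 ± 0.39 and 1.95 ± 0.39, with FDR of 0.505, 0.319 and 0.00219. In the FFPE table the step from 313 to 427 mg/kg-d passed for 0 of 51 members (all genes, 0.375%), and for Mrpl38 it was 1.01 ± 0.39 (FDR 0.396). An unadjusted p under 0.05 for that step held for 7 members (all genes, 9.73%).

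Mrps14 is a small-subunit protein with a bacterial counterpart, encoded at chr1:160195215-160202170 on the plus strand. In FFPE it ranged from 67.3 to 154 CPM in controls (median 114), from 85.7 to 198 at 198 mg/kg-d (median 150), from 174 to 319 at 313 mg/kg-d (median 237) and from 115 to 153 at 427 mg/kg-d (median 143). The 313 mg/kg-d animals lay above all controls, whereas those at 427 mg/kg-d lay inside the control range. The log2 fold change was 1.15 ± 0.26 at 313 mg/kg-d (FDR 0.0158) and 0.37 ± 0.26 at 427 mg/kg-d (FDR 0.88). In FROZ Mrps14 ranged from 76.6 to 93.9 CPM in controls (median 85.6), from 90.9 to 103 at 313 mg/kg-d (median 99.0) and from 99.4 to 114 at 427 mg/kg-d (median 101), where only the highest dose lay clear of the controls. The FROZ log2 fold changes at these doses were 0.20 ± 0.07 and 0.29 ± 0.07 (FDR 0.0327 and 0.00212), and both calls were lost with median-ratio scaling (FDR 0.607 and 0.137). The FROZ call at 313 mg/kg-d was also lost without any 1 of control animals 6, 7 and 8 or animals 73, 74 and 78. The FFPE count of 1 at 313 mg/kg-d became 0 without control animal 7 or 8 or animal 77 of the 313 mg/kg-d group, and 2 without animal 50, 53, 76, 78 or 101.

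**Figure D3:**
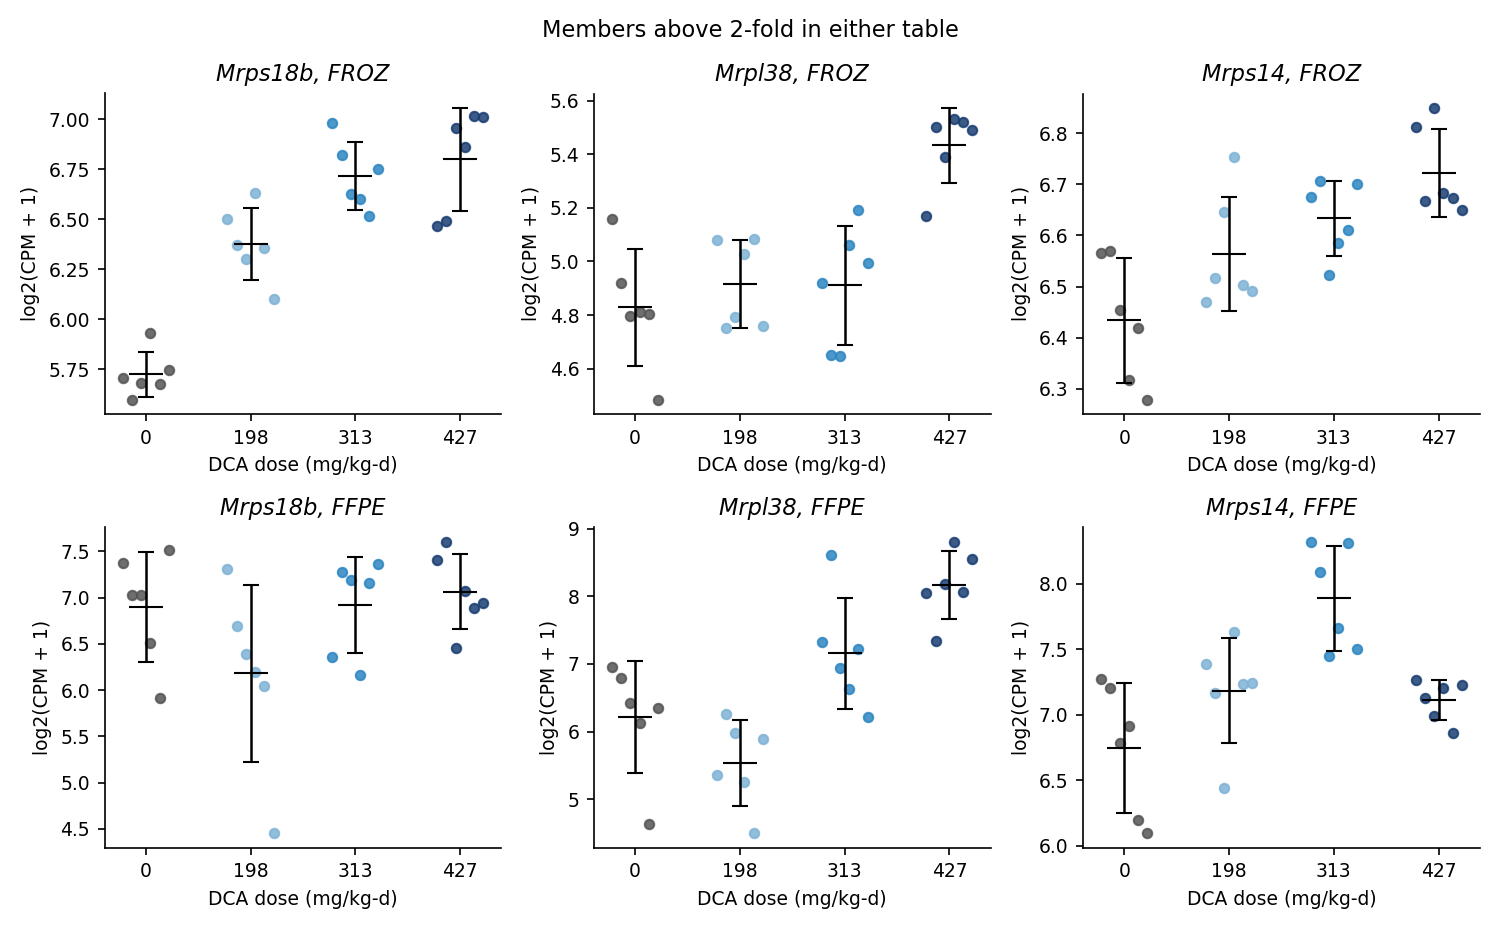
Levels, as log2(CPM + 1), of Mrps18b, Mrpl38 and Mrps14 against DCA dose (mg/kg-d) in FROZ (top) and FFPE (bottom), with 6 animals per dose and mean ± SD. The scales differ between panels, and the tables were scaled separately, so levels are not compared between rows. Mrpl38 is above all controls at 427 mg/kg-d in both rows, whereas Mrps18b is so in the top row alone.

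Though few single genes passed, FFPE members lay mostly above 0 at the higher doses. Their median log2 fold change was -0.06, 0.47 and 0.45 at the 3 doses, beside -0.19, -0.12 and 0.18 for all genes. It was above 0 for 23, 37 and 46 of 51, or 45.1%, 72.5% and 90.2%, beside 40.7%, 43.5% and 62.2% of all genes. All 6 treated animals lay above all 6 controls for 0, 2 and 1 members, beside 0.195%, 0.959% and 2.94% of all genes. The 2 at 313 mg/kg-d were Mrps14 and Mrps7, a protein of the small-subunit head named after its values were seen. In the same table the FFPE median of respiratory chain genes at 427 mg/kg-d was 0.48, and that of cytosolic ribosomal proteins was -0.04. With the 8 FFPE libraries of over 10% genes at 0 left out, an alternative chosen after seeing the data, the member medians were 0.32, 0.63 and 0.56 and the counts of calls stayed at 0, 1 and 1. This removed 4 of the 6 animals at 198 mg/kg-d and 3 of the 6 at 313 mg/kg-d, so these medians rest on few animals. Over all alternatives run, the FFPE median of all genes ranged from -0.33 to 0.11, -0.19 to 0.03 and 0.07 to 0.22 at the 3 doses.

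Summed over 51 members, the FFPE level was 2248 to 3120 CPM in controls (median 2478), 2409 to 3180 at 198 mg/kg-d (median 2871), 3104 to 3963 at 313 mg/kg-d (median 3541) and 3201 to 3588 at 427 mg/kg-d (median 3430). The highest dose lay above all controls, the middle dose overlapped them by 1 animal, and the lowest dose overlapped them widely. After median-ratio rescaling, FFPE controls ranged from 2213 to 2976. The 198, 313 and 427 mg/kg-d animals then ranged from 2298 to 3321, 2823 to 3832 and 2949 to 3275, and every dose overlapped the controls. Per animal, the median difference of the members from the control mean was -0.07 to 0.28 in FFPE controls, -0.38 to 0.38 at 198 mg/kg-d, 0.39 to 0.97 at 313 mg/kg-d and 0.37 to 0.63 at 427 mg/kg-d. In FROZ it was -0.12 to 0.09 in controls, 0.04 to 0.26 at 198 mg/kg-d, 0.30 to 0.39 at 313 mg/kg-d and 0.25 to 0.44 at 427 mg/kg-d. In both tables the 2 higher doses thus lay above every control. The all-gene medians did so too in FROZ at both doses and in FFPE at 427 mg/kg-d (0.21 to 0.28, controls at most 0.16). With the all-gene median of each animal subtracted, FROZ controls reached 0.06, below the 313 and 427 mg/kg-d animals (0.21 to 0.25 and 0.11 to 0.31). In FFPE the controls then reached 0.23 and overlapped both doses (0.18 to 1.05 and 0.14 to 0.38).

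**Figure D4:**
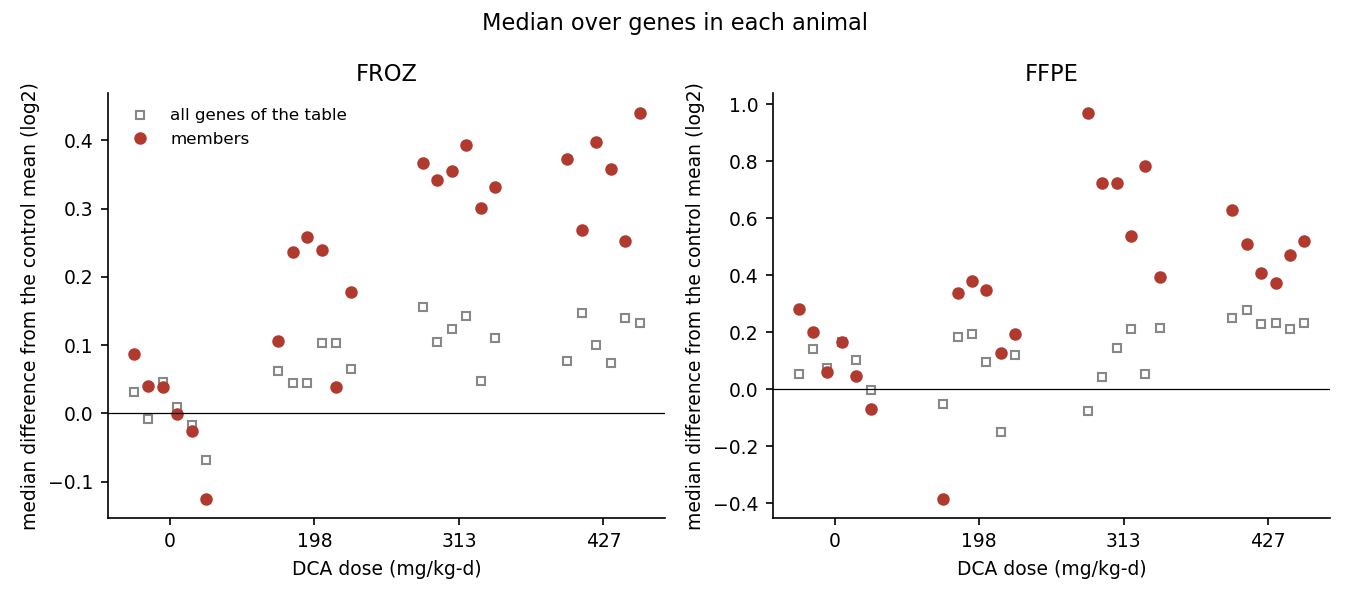
Median over genes of the difference from the control mean, in log2 units, for each animal, against DCA dose (mg/kg-d) in FROZ (left) and FFPE (right). Red circles are the members and grey squares every gene of that table. Each red circle at 313 and 427 mg/kg-d lies above all control circles and above the grey squares of its dose.

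The question of the paired design, whether fixed tissue gave the same response, was put to each member by the FFPE minus FROZ difference within an animal. No member differed in response at 198, 313 or 427 mg/kg-d by limma, with 0 of 51 each (all genes, 0.0303%, 0% and 0.0303%), and 7, 6 and 3 had an unadjusted p under 0.05, beside 750, 487 and 146 of 6591 genes. The median difference of the members was -0.20, 0.20 and 0.17, beside -0.27, -0.22 and 0.03 for all genes. These tests had wide intervals. For Mrps18b, which rose in FROZ, the FFPE log2 fold change at 427 mg/kg-d was 0.17 ± 0.37, and the difference was -0.91 with a 95% interval of -1.75 to -0.07 and an FDR of 1.00. For Mrpl38 the difference was 1.35 with an interval of 0.42 to 2.28, and for Mrpl45 -0.34 with an interval of -2.51 to 1.83. A missed threshold therefore does not show that responses were alike.

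**Figure D5:**
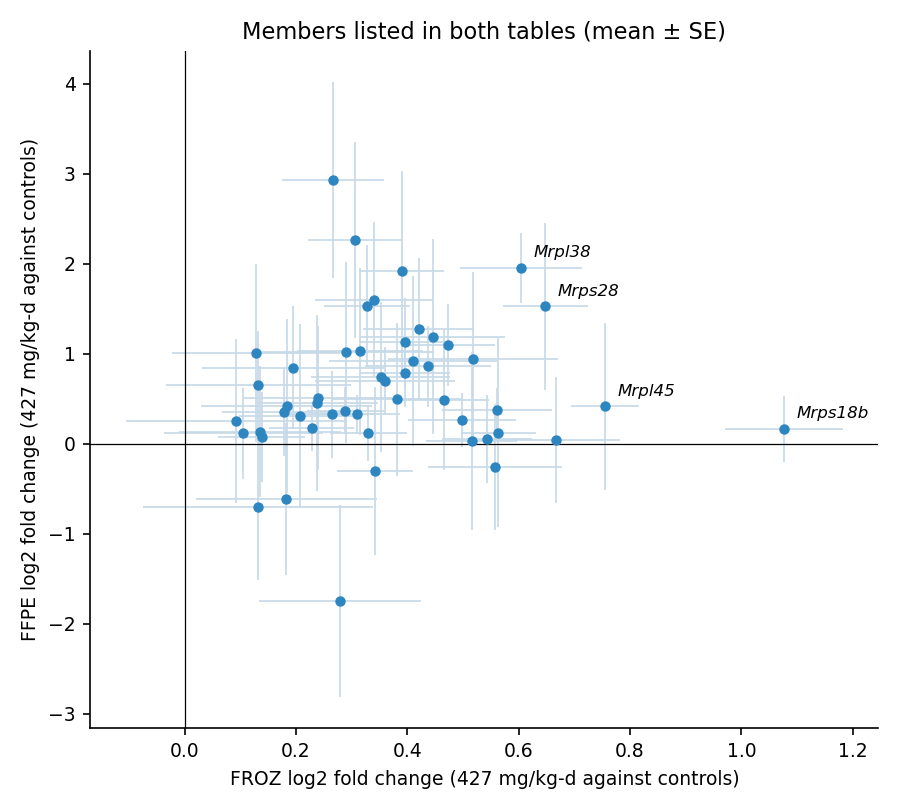
FFPE log2 fold change (vertical) against FROZ log2 fold change (horizontal) at 427 mg/kg-d for the 51 members of both tables. Points are estimates and bars are SE. All points lie right of 0 and 46 lie above 0, and the vertical scale is wider than the horizontal one.

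Markers of other liver cells were read beside these results. At 427 mg/kg-d in FROZ, 3 of 5 Kupffer cell markers were lower (Adgre1, Cd5l and Csf1r), with a summed level of 55.0 to 74.9 CPM against 67.5 to 104 CPM in controls. Of 6 sinusoidal endothelial markers 1 was lower (Stab2), at a summed 98.2 to 120 CPM against 125 to 144 CPM, and 1 of 6 hepatocyte markers was lower (Apob), at 18687 to 23018 CPM against 21595 to 27309 CPM. Of 5 stellate cell markers 1 was lower (Dcn), at a summed 192 to 354 CPM (median 262) against 218 to 505 CPM (median 233). At 313 mg/kg-d 1 of these 5 was higher, Lrat (0.64 ± 0.19, FDR 0.0116), and 1 was lower, Dcn (FDR 0.0106). None of 4 cholangiocyte markers (30.4 to 47.6 CPM against 33.2 to 45.1 CPM) and none of 5 lymphocyte markers (23.9 to 84.8 CPM against 32.8 to 46.6 CPM) passed at 427 mg/kg-d. With median-ratio scaling Apoa1 and Cps1 were lower as well, which made 3 hepatocyte markers, and so were Clec4g and Kdr, which made 3 endothelial ones, and the cholangiocyte marker Spp1, while the Kupffer, stellate and lymphocyte counts were 3, 1 and 0. Marco, Des, Epcam, Sox9 and Cd79a were not listed in FROZ. In FFPE at 427 mg/kg-d the 5 hepatocyte markers listed summed to 24678 to 29583 CPM against 36384 to 48967 CPM in controls, without overlap, and 1 was called lower (Apoa1). No other marker listed in FFPE passed at that dose, and no lymphocyte marker was listed there. The part of these markers in the change of the members was not tested.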

How the data were processed

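TempO-Seq libraries from frozen (FROZ) and FFPE liver of the same 24 mice were analysed. The authors aligned reads with STAR 2.6 in Partek to mm10 RefSeq transcripts, filtered genes, and scaled each table separately. The deposited values are log2 of CPM plus 1, so low genes show understated changes. Depth was read from the step of the low values, of which 96.4% to 97.2% were whole reads in FROZ and 77.3% to 94.3% in FFPE. Intervals came from the SE of the limma fits, so they include the spread between animals. Floors of 3 reads cover counting error only.

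Limma 3.58.1 (R 4.3.3, trend) was fitted over all genes and the 4 doses of a table, with Benjamini-Hochberg adjustment and a threshold of 0.05. Slopes were per 100 mg/kg-d. The FFPE minus FROZ difference used the animal as a block, since labels give both libraries the same animal number. Deviations of libraries of the same animal over 4815 genes correlated with a median r of 0.13, against -0.02 for other animals. The fits were tested on simulated data.

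Named members were those past the threshold and above 2-fold in either table, the 8 largest increases in FROZ and 5 in FFPE at 427 mg/kg-d, those called at 198 mg/kg-d, the S18 paralogs, stalk and decoding proteins, Mrpl45 and Mrps36. Other genes were named after their values were seen. The members and lists were chosen with earlier results of these data known. Alternatives covered the offset, scaling, genes tested, variance prior, weights, groups and animals. Positions came from GENCODE M21. Promoters of 8 members, Mrps28 and Mrpl38 among them, were not analysed here.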

Additional observations from a re-analysis of the deposited data

Results flagged for a closer look

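Among 108 groups of 6 animals tested for a value far from the others, 8 held one, 5 in FFPE and 3 in FROZ, where chance gives about 1 in 20. Values are log2(CPM + 1) unless stated. In FROZ, control animal 3 was lowest for Mrpl45 at 6.78, with the next at 6.96. Animal 49 (198 mg/kg-d) was lowest in FROZ for Mrps28 at 5.05, with the next at 5.23. Animal 73 (313 mg/kg-d) was highest in FROZ for Mrpl12 at 2.26, with the next at 1.91. In FFPE, control animal 7 was lowest for Mrpl38 at 4.64, with the next at 6.12. Mrpl45 was at 0 in FFPE in animal 73 (313 mg/kg-d), with the next at 5.85. Mrpl12 was at 0 in FFPE in control animal 3 and in animal 98 (427 mg/kg-d), with the next at 3.06 and 3.25. The median of all members in FFPE, as the log2 difference from the control mean, was lowest in animal 49 (198 mg/kg-d) at -0.38, with the next at 0.13. That library had 17 of 51 members at 0.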

How the results depend on the processing

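No member was called lower in FROZ or FFPE under any alternative run, and Mrps18b passed in FROZ at every dose in all 31. Median-ratio scaling gave 1, 24 and 24 members higher in FROZ at 198, 313 and 427 mg/kg-d, 29 with a rising slope and 9 above all controls at 427 mg/kg-d, with medians of 0.22 (313 mg/kg-d) and 0.19 (427 mg/kg-d), and in FFPE at 427 mg/kg-d a median of 0.35 and Mrpl40 at -0.059. At 313 mg/kg-d in FROZ the median was 0.42 with an offset of 0.1 or 0.01 CPM and 0.40 with genes of at least 10 CPM. In FROZ at 198 mg/kg-d the count was 8 with genes of at least 10 CPM and 2 with only the 2 groups compared.

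In FFPE the count was 2 at 313 mg/kg-d with an offset of 0.1 CPM, 0 at 313 mg/kg-d and for the slope with a constant variance prior, 2 at 427 mg/kg-d and 3 for the slope with array weights, and 3 at 427 mg/kg-d with only the 2 groups compared. With array weights the FFPE median at 427 mg/kg-d was 0.58. Without the 8 FFPE libraries with over 10% of genes at 0 it was 0.56, and 0.32 at 198 mg/kg-d, where 4 of the 6 animals were left out. Uncalled FFPE members changed sign at 427 mg/kg-d. Mrpl35 was -0.34 and -0.88 with offsets of 0.1 and 0.01 CPM, -0.13 with weights and -0.39 without the 8 libraries, Mrpl12 was -0.12 and -0.35 in the last 2, and Mrps12 was -0.087 with weights.

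Leaving out 1 animal gave 2 to 4 FROZ members higher at 198 mg/kg-d, a FROZ median of 0.31 to 0.37 at 313 mg/kg-d, -0.055 to 0.22 for Mrpl12 and -0.12 to 0.069 for Mrpl10 at 427 mg/kg-d. In FFPE it gave 0 to 2 members higher at 313 mg/kg-d, and at 427 mg/kg-d a median of 0.40 to 0.56, 1 to 3 members above all controls, -0.030 to 0.29 for Mrps18b, -0.11 to 0.20 for Mrpl40, -0.39 to 0.66 for Mrpl35 and -0.35 to 0.92 for Mrpl12. The median FFPE minus FROZ response at 427 mg/kg-d ranged from 0.060 to 0.26. Without the replicate block, 0 members differed at each dose, so the pairing changed no call. The medians of -0.20, 0.20 and 0.17 are the same by arithmetic, since every animal had a library in both tables. Unless the alternative itself removes libraries or genes, the cause was not tested. Depth limits the FFPE values, where up to 17 members were at 0 in a library.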
